A study of Mus musculus with 8 samples.

Results

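The connexin genes followed here are Gja3, Gja1, Gja4, Gja5, Gjb1, Gjb2, Gjb5 and Gjc1, 8 of the 8251 genes named on the MG-U74Av2 chip, chosen by name and including Gja3, the gene disrupted in the mice. Controls aside, the chip has 12422 probe sets, and 9 of them belong to these genes, 2 for Gja1 and 1 for each of the other genes. Lenses were taken at 10 days of age from α3Cx46 KO and WT mice on the 129SvJae background and from α3Cx46 KO and WT mice on the C57BL/6J background. Each group had 2 arrays (8 in all), and each array received RNA from pooled lenses (20 to 30 lenses per pool). The sample titles do not give the sex of the mice. In KO mice the gene of Cx46, Gja3, was disrupted in the germline by a construct that carried a neomycin gene with a protamine polyadenylation sequence. The 129SvJae strain also carries a defective gene for the beaded filament protein CP49 (Bfsp2) in WT and KO mice alike, and the lenses came from an age before cataracts are seen. Whether the 2 pools of a group shared animals is not stated, so p-values cover only how far these samples vary, and that variation may be technical.

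Gap junctions join the cytoplasm of neighbouring cells. Connexins assemble in groups into hemichannels, hemichannels of adjoining cells dock to form channels, and ions and small metabolites pass through. The lens has no blood supply of its own, and its inner fiber cells depend on such coupling. Cx43, from Gja1, is the connexin of the lens epithelium, while Cx46, from Gja3, is a connexin of the fiber cells. Cx37 (Gja4) and Cx40 (Gja5) are known as connexins of vascular endothelium, Cx45 (Gjc1) of early heart and smooth muscle, Cx32 (Gjb1) of liver and myelinating glia, Cx26 (Gjb2) of the cochlea and epidermis, and Cx31.1 (Gjb5) of skin and placenta.

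The stretches upstream of 3 of these genes are shown to place the disrupted gene, its nearest connexin neighbour and the other connexin with a high lens signal. Gja3 and Gjb2 are adjacent genes on chromosome 14 in the RefSeq table of GRCm38.p6, with Gjb6 next to Gjb2, so Gjb2 lies beside the disrupted locus. The sequences are RefSeq's for GRCm38.p6, the 250 bases before the most upstream listed start, and 7 of the 8 genes matched the table. Gja3 is shown from chr14:57058031-57058280 (minus strand), Gjb2 from chr14:57104703-57104952 (minus strand) and Gja1 from chr10:56377050-56377299 (plus strand). Capitals mark a GC box (GGGCGG), a Maf half-site (TGCTGA) or a TATA box (TATAAA) on either strand.
Gja3: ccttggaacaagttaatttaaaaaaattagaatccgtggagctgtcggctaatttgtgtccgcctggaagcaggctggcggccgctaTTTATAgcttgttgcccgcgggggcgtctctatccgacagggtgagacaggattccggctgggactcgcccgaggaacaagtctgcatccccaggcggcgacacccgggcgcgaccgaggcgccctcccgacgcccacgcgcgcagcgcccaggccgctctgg
Gjb2: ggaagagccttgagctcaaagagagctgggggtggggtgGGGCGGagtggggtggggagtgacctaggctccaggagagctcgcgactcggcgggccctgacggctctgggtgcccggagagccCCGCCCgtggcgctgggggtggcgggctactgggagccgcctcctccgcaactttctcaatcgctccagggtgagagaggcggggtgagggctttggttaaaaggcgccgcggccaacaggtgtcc
Gja1: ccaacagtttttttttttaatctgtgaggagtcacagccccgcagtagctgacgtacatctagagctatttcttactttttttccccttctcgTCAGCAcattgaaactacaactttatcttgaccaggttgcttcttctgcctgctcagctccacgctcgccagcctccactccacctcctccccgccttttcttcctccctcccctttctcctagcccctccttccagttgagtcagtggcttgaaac
The Gja3 window holds 1 TATA box, the Gjb2 window 2 GC boxes and the Gja1 window 1 Maf half-site. Of all 32851 windows of this length, 12.4% hold a TATA box, 32.7% a GC box and 16.1% a Maf half-site. A match is a run of letters and was not tested as a binding site.

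Values are MAS5 signals on a linear scale, scaled to a trimmed mean of 250 on every array, and signals below 50 are close to background. Signals of different probe sets are not compared with one another, because each has its own probes. The replicate 1 arrays of all 4 groups shared 1 scan session, whereas the replicate 2 arrays came later, that of 129SvJae WT by itself and the other 3 together. Median signals of the arrays ran between 85.1 and 114, and the replicates of a group correlated at 0.815 to 0.875 (Spearman, across probe sets). A fluidics error is on record for the first C57BL/6J WT array. The replicate 1 arrays also shared a chip lot. The replicate 2 arrays came from another lot, except C57BL/6J KO replicate 2, whose lot was its own. An effect of the lot was not tested. One array stood apart from its group. Prm1 (protamine 1, a DNA-packing protein of sperm), whose polyadenylation sequence the construct carries, had signals of 1582, 2167, 1386 and 1340 on the KO arrays. On the WT arrays it was at 14.5, 9.99 and 4.70, and at 387 on 129SvJae WT replicate 1. That array also had the lowest Gja3 signal of the WT arrays (1100.3), and its Sag signal (the retinal arrestin, looked at after the values were seen) was 475, against 9.99 to 94.5 elsewhere. Results that rest on this array are also given without it, and what sets it apart was not tested.

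Of the 9 probe sets, 6 of 5 genes (Gja3, Gja1, Gja5, Gjb2 and Gjb5) had a mean above 50 in at least 1 group and entered the test with 10078 probe sets in all. Gja4, Gjb1 and Gjc1 did not. Log2 ratios come from 1 limma fit to all 8 arrays, and "called" means a Benjamini-Hochberg adjusted p under 0.05 over all 10078.

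Gja3 fell in KO lenses. Its signals were 472 and 445 for 129SvJae KO and 448 and 519 for C57BL/6J KO lenses, against 1100.3 and 3381 for 129SvJae WT and 1968 and 3274 for C57BL/6J WT lenses. The 4 KO arrays all lay below the 4 WT arrays. The KO signals averaged 471 ± 34.5 and the WT signals 2431 ± 1095 (SD, n = 4 each), so the spread lay on the WT side. Averaged over strains, KO over WT stood at -2.23 on the log2 scale (SE 0.29, limma adjusted p = 0.0160), a signal 4.71-fold lower in KO (95% interval 3.05 to 7.27). Gja3 was 1 of 2 probe sets called (0.0198%), and the only one called lower (0.00992% of those tested). Arrays that do not overlap, lower in KO, were found for 1.22% of all probe sets. The call was lost with arrays centred on the median (limma adjusted p = 0.296), without the level filter (0.0611), without the variance trend (0.870), by the methods' t-test of log2 values (0.847), and without any 1 KO array or C57BL/6J WT replicate 2 (0.0700 to 0.193), with a ratio of -2.29 to -2.05 in these. The methods' t-test was adjusted here over all tested probe sets, whereas the authors' criteria name no adjustment, so their own threshold was not applied. The signal left in KO lenses was above 50 on every array. Where the probes lie relative to the disrupted part of Gja3 is unknown here.

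**Figure D1:**
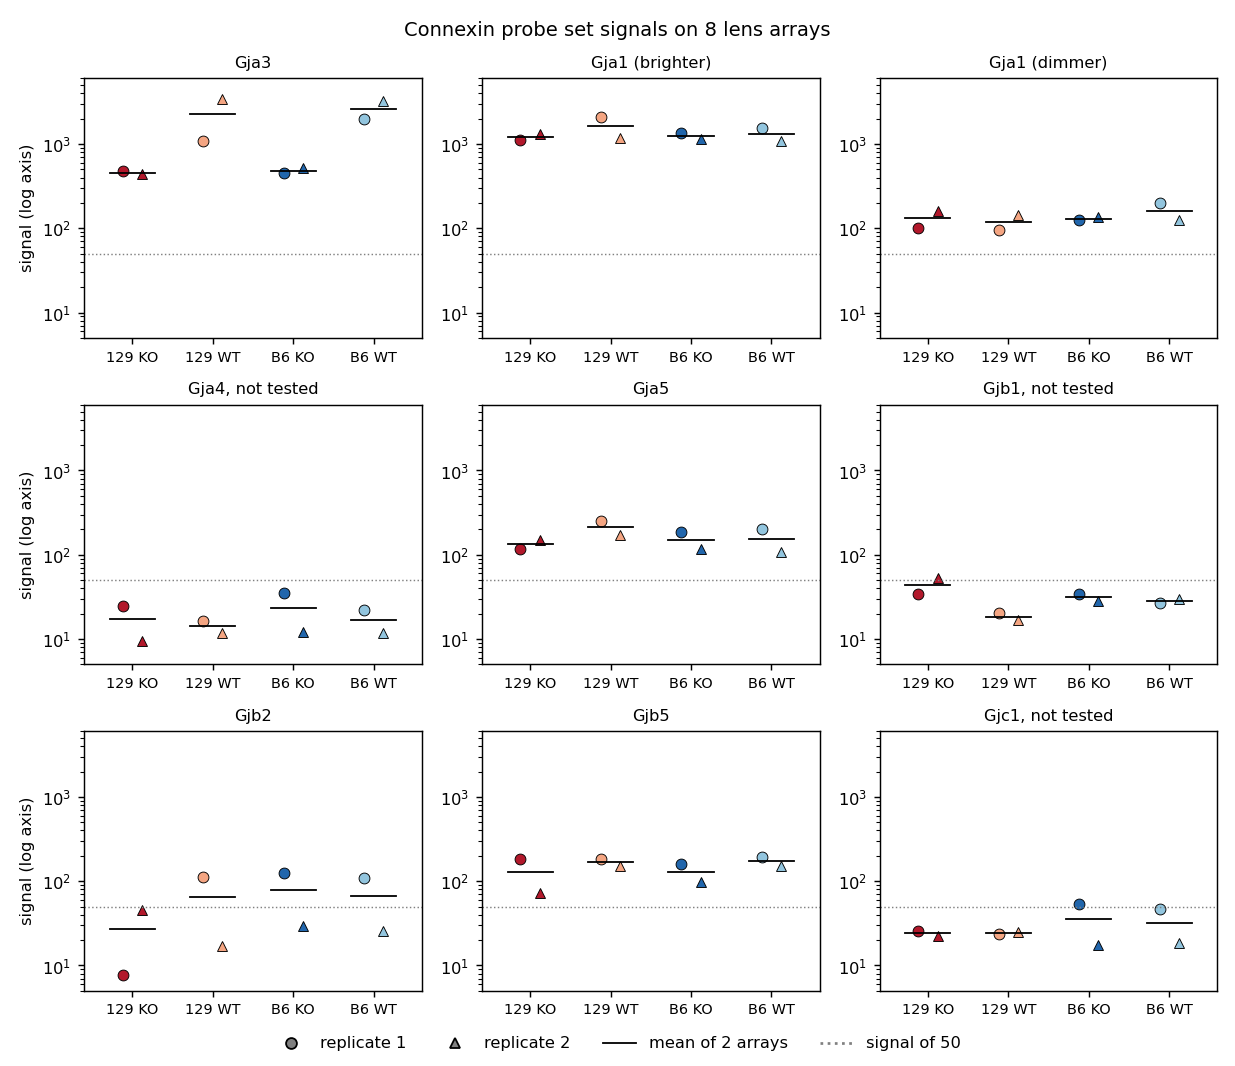
Signals of the 9 connexin probe sets on a log axis, by group (129 stands for 129SvJae and B6 for C57BL/6J), with circles for replicate 1, triangles for replicate 2, bars for the mean of 2 arrays and a dotted line at 50. Gja3 sits between 445 and 519 on the KO arrays and between 1100.3 and 3381 on the WT arrays, while KO and WT arrays overlap for each of the other 8 probe sets.

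A difference in the size of the fall between the backgrounds was not detected. In C57BL/6J lenses Gja3 averaged 484 ± 50.6 in KO and 2621 ± 923 in WT (SD, n = 2 each), a log2 ratio of -2.40 (SE 0.41, limma adjusted p = 0.257). In 129SvJae lenses it averaged 459 ± 19.6 in KO and 2241 ± 1613 in WT (SD, n = 2 each), a log2 ratio of -2.07 (SE 0.41, limma adjusted p = 0.9998). Neither passed within its strain in the fit to all 8 arrays, where limma called 0.00992% of all probe sets in C57BL/6J and 0% in 129SvJae lenses (in 129SvJae, 314 probe sets had an unadjusted p under 0.05, and the methods' t-test called 0). The difference of the C57BL/6J and 129SvJae ratios was -0.32 (SE 0.58, 95% interval -1.58 to 0.93, limma adjusted p = 0.9998), in a contrast where 0% of probe sets were called and 213 had an unadjusted p under 0.05. The C57BL/6J ratio passed at the same -2.40 with the scan session blocked (limma adjusted p = 0.00629), in a fit to the C57BL/6J arrays alone (0.00382) and without 129SvJae WT replicate 2 (0.00710). With 129SvJae WT replicate 1 left out, the 129SvJae ratio was -2.88 (adjusted p = 0.00560), the ratio in C57BL/6J lenses passed as well (-2.40, adjusted p = 0.00465), and the average was -2.64 (adjusted p = 1.22e-04), all from limma.

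The size of the fall differed between replicates. Between replicate 1 arrays, which shared a scan session, the log2 ratio of KO to WT was -1.22 in 129SvJae and -2.14 in C57BL/6J lenses. Between replicate 2 arrays it was -2.93 in 129SvJae and -2.66 in C57BL/6J lenses. The KO arrays differed little between replicates, by -0.09 (129SvJae) and 0.21 (C57BL/6J) on the log2 scale, whereas WT replicate 2 lay above WT replicate 1 by 1.62 in 129SvJae and 0.73 in C57BL/6J. Blocking on the replicate number gave an averaged ratio of -2.23 (limma adjusted p = 0.00750), and blocking on the scan session gave -1.90. In the session fit 129SvJae WT replicate 2, alone in its session, took a term of its own and did not bear on the ratio. Leaving that array out without a block gave -1.83.

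Gja1, the epithelial connexin, was measured by a brighter and a dimmer probe set, and neither was called in KO lenses. The brighter one carries the manufacturer's mark for probes shared within a sequence family, so it may read related transcripts. Its signals were 1128 and 1299.8 for 129SvJae KO and 1365 and 1147 for C57BL/6J KO lenses, against 2099 and 1170 for 129SvJae WT and 1533 and 1083 for C57BL/6J WT lenses. KO and WT arrays overlapped, and the highest signal was that of 129SvJae WT replicate 1. Averaged over strains, KO over WT on the log2 scale was -0.21 (SE 0.20, limma adjusted p = 0.998). Its 95% interval, as a ratio of KO to WT signal, was 0.639 to 1.17. The ratio was -0.37 (SE 0.29) in 129SvJae and -0.04 (SE 0.29) in C57BL/6J lenses, and without 129SvJae WT replicate 1 the average was within 0.01 of 0. The dimmer probe set averaged 131 ± 24.6 in KO and 140 ± 43.9 in WT lenses (SD, n = 4 each), a log2 ratio of -0.07 (SE 0.37, 95% interval -0.87 to 0.74, limma adjusted p = 0.998). Its sign turned with arrays centred on the median (0.031).

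Gja5, an endothelial connexin, had signals above 50 on all 8 arrays. They were 118 and 148 for 129SvJae KO and 184 and 116 for C57BL/6J KO lenses, against 252 and 169.6 for 129SvJae WT and 203 and 107 for C57BL/6J WT lenses. The KO arrays all lay within the range of the WT arrays. Averaged over strains, KO over WT on the log2 scale was -0.33 (SE 0.36, limma adjusted p = 0.998), with a 95% interval of 0.464 to 1.36 for the ratio of signals. It was -0.64 (SE 0.51) in 129SvJae and -0.02 (SE 0.51) in C57BL/6J lenses. The highest signal was that of 129SvJae WT replicate 1, and without that array the 129SvJae ratio was -0.36. The other endothelial connexin, Gja4, lay between 9.39 and 35.2 on the KO arrays and between 11.7 and 21.9 on the WT arrays, below 50 throughout. Endothelial markers fixed for comparison (11 of 12 on the chip, 10 tested, none called) had a summed signal of 856 to 1492 on the KO arrays and of 1095 to 1283 on the WT arrays. Of these, Kdr, Eng and Sox18 were above 50 on all 8 arrays and Pecam1 and Tek on 7, while Cdh5 was above 50 on 2 arrays and Tie1 on 1. In lens RNA of this kind, fewer cells of a type and less RNA per cell cannot be told apart.

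**Figure D2:**
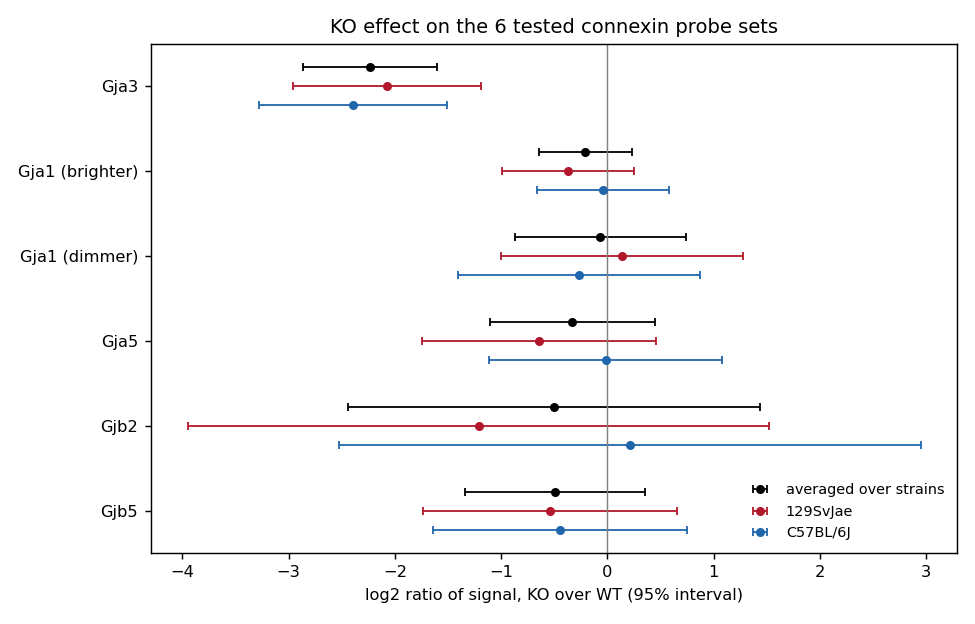
Log2 ratio of KO to WT signal (x axis) for the 6 tested connexin probe sets, averaged over strains (black) and in 129SvJae (red) and C57BL/6J (blue) lenses, as limma estimates with 95% intervals from all 8 arrays, not adjusted for the number of probe sets. The 3 intervals of Gja3 lie below 0, and all intervals of the other 5 probe sets include 0, the widest being those of Gjb2.

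Gjb2, the neighbour of Gja3, had an unsteady signal. It was 7.69 and 45.9 for 129SvJae KO and 126 and 29.6 for C57BL/6J KO lenses, against 112 and 16.9 for 129SvJae WT and 109 and 25.5 for C57BL/6J WT lenses. The 3 signals above 50 were all on replicate 1 arrays, and the fourth replicate 1 array, of 129SvJae KO, had the lowest signal of all. The log2 ratio of KO to WT was -0.50 (SE 0.90, limma adjusted p = 0.998), and the interval of the ratio of signals ran from 0.185 to 2.70. Between replicate 1 arrays the averaged ratio was -1.83, and between replicate 2 arrays it was 0.83. Gjb5, an epidermal connexin, had 183 and 72.5 for 129SvJae KO and 162 and 98.4 for C57BL/6J KO lenses, against 184 and 152 for 129SvJae WT and 195 and 152 for C57BL/6J WT lenses. Its lowest signals were those of KO replicate 2 in both strains, while KO replicate 1 lay within the range of WT. The log2 ratio was -0.49 (SE 0.39, 95% interval -1.34 to 0.35, limma adjusted p = 0.998), at -0.54 (SE 0.55) in 129SvJae and -0.45 (SE 0.55) in C57BL/6J lenses.

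Gjb1 and Gjc1 stayed near background. Gjb1 had 34.6 and 53.1 for 129SvJae KO and 34.0 and 28.6 for C57BL/6J KO lenses, against 20.1 and 16.9 for 129SvJae WT and 26.8 and 30.1 for C57BL/6J WT lenses. Only 129SvJae KO replicate 2 was above 50. Fitted without the level filter, the log2 ratio of KO to WT for Gjb1 was 0.68 (SE 0.60, limma adjusted p = 0.999). It was 1.22 (SE 0.85) in 129SvJae and 0.13 (SE 0.85) in C57BL/6J lenses, from signals mostly below 50. Gjc1 ran from 17.3 to 53.6 on the KO arrays and from 18.3 to 46.2 on the WT arrays, with 1 array above 50.

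The median log2 ratio of KO to WT was -0.41 across the 6 tested connexin probe sets and -0.02 over all tested probe sets. The 6 include the disrupted Gja3 and both Gja1 probe sets. Apart from Gja3 the ratios ran from -0.50 to -0.07, and none was called in either direction. All but Gja3 lay inside the range from the 5th to the 95th percentile of the chip (-0.97 to 0.75). A higher signal in KO lenses was thus not detected for any of these 6 probe sets. Gjd2, at 1.01 (SE 0.68), and Gjb6, at 0.25 (SE 0.77), lie outside the 6 and are given below. The upper ends of the 95% intervals were ratios of KO to WT of 1.17 for the brighter Gja1 probe set, 1.27 for Gjb5, 1.36 for Gja5, 1.67 for the dimmer Gja1 probe set and 2.70 for Gjb2, so that rises up to these sizes lay within the intervals. With both WT replicate 1 arrays left out, an alternative chosen after seeing the data, the ratios were 0.13 for the brighter Gja1 probe set, 0.04 for Gja5 and 0.71 for Gjb2 on the log2 scale, and none was called by limma.

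Between strains, none of the 6 probe sets was called averaged over genotypes, where 0.367% of all probe sets were. Gja3 averaged 2621 ± 923 in C57BL/6J WT and 2241 ± 1613 in 129SvJae WT lenses (SD, n = 2 each), a log2 ratio of C57BL/6J to 129SvJae of 0.40 (SE 0.41, limma adjusted p = 0.940), which was -0.41 without 129SvJae WT replicate 1. In KO lenses the ratio was 0.07 (SE 0.41, limma adjusted p = 0.9998). Averaged over genotypes the log2 ratio of C57BL/6J to 129SvJae was 0.23 (SE 0.29) for Gja3, -0.12 (SE 0.20) and 0.22 (SE 0.37) for the brighter and dimmer Gja1 probe sets, -0.17 (SE 0.36) for Gja5, 0.99 (SE 0.90) for Gjb2 and 0.09 (SE 0.39) for Gjb5, with adjusted p from 0.927 to 0.981 by limma. The arrays of the strains overlapped for all 9 probe sets, and did not for 5.57% of the chip. Ordered by their mean, the groups ran C57BL/6J WT, 129SvJae WT, C57BL/6J KO and 129SvJae KO for Gja3, and of the neighbours in that order the arrays overlapped except between 129SvJae WT and C57BL/6J KO.

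**Figure D3:**
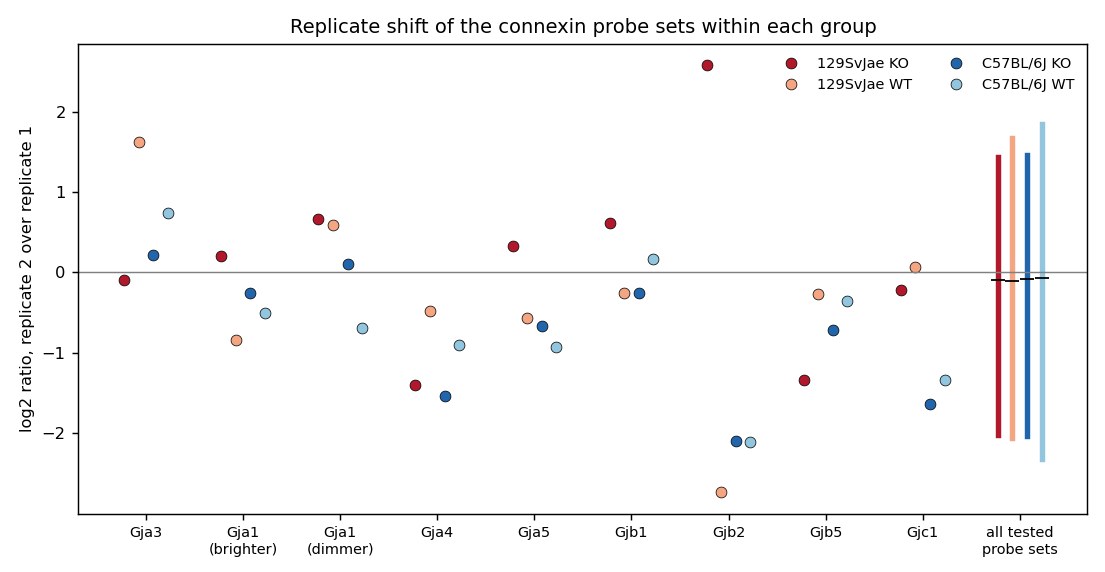
Log2 ratio of replicate 2 to replicate 1 (y axis) within each of the 4 groups for the 9 connexin probe sets, with bars at the right from the 5th to the 95th percentile of all tested probe sets and a dash at their median. Gja4 and Gjb5 lie below 0 in all 4 groups, and Gjb2 runs from -2.73 in 129SvJae WT to 2.58 in 129SvJae KO.

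Several connexins shifted between replicates. Replicate 2 lay below replicate 1 in all 4 groups for Gja4 (-1.54 to -0.48 on the log2 scale) and Gjb5 (-1.33 to -0.27). It did so in 3 of 4 groups for the brighter Gja1 probe set, Gja5, Gjb2 and Gjc1. Over all tested probe sets the median shift was -0.10 to -0.07, and the shifts of the 4 groups correlated with one another at 0.129 to 0.206 across probe sets.

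Other connexins on the chip were Gjb6, Gjd2 and Gja10, with 5 probe sets. Gjd2, the neuronal connexin Cx36, had signals of 79.0 and 41.3 for 129SvJae KO and 109 and 63.9 for C57BL/6J KO lenses, against 46.4 and 69.3 for 129SvJae WT and 8.89 and 48.0 for C57BL/6J WT lenses. Its log2 ratio of KO to WT was 1.01 (SE 0.68, limma adjusted p = 0.998). The brightest Gjb6 probe set had a ratio of 0.25 (SE 0.77), and the other 2 Gjb6 probe sets and Gja10 were not tested. Of 10 tested genes on either side of Gja3 on chromosome 14, none was called in KO lenses. On one side, Gjb6, Cryl1 (lambda-crystallin, a lens protein of rabbit), Ift88 (a cilium transport protein) and Eef1akmt1 had log2 ratios between -0.22 and 0.25, and Gjb2 is given above. On the other side the ratios went both ways. Pspc1 (a paraspeckle protein) had 1.10 (SE 0.74), the mast cell protease genes Mcpt1 and Cma2 had 1.03 (SE 0.88) and 0.33 (SE 0.39), and the granzyme genes Gzmb and Gzmg had -0.92 (SE 0.67) and -0.51 (SE 0.47).

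No gene of the lists of gap junction partners passed the test in KO lenses. Among 25 connexin partners and kinases on the chip, 21 were tested and none was called in either direction (none at an unadjusted p under 0.05), with a median log2 ratio of 0.11. Tjp1 (ZO-1, the scaffold that binds connexin tails) was among them, and the smallest p-values were those of the kinase genes Prkce, at 1.52 (SE 0.72) from low signals, Prkaca, at 0.35 (SE 0.21), and Src, at 0.88 (SE 0.62). Of 20 tested genes of connexin trafficking and turnover none was called, with a median of 0.15. Ubqln1, an ubiquilin of protein degradation, had 1249 and 1561 for 129SvJae KO and 1179 and 1409 for C57BL/6J KO lenses, against 704 and 1203 for 129SvJae WT and 865 and 1019.6 for C57BL/6J WT lenses. Its log2 ratio was 0.53 (SE 0.20, limma adjusted p = 0.998). Of the 4 KO arrays 1 lay within the range of the WT arrays. Next by p-value were Vamp2, a vesicle fusion protein, at 0.45 (SE 0.24), and the tubulin gene Tuba1a, at -0.27 (SE 0.16).

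**Figure D4:**
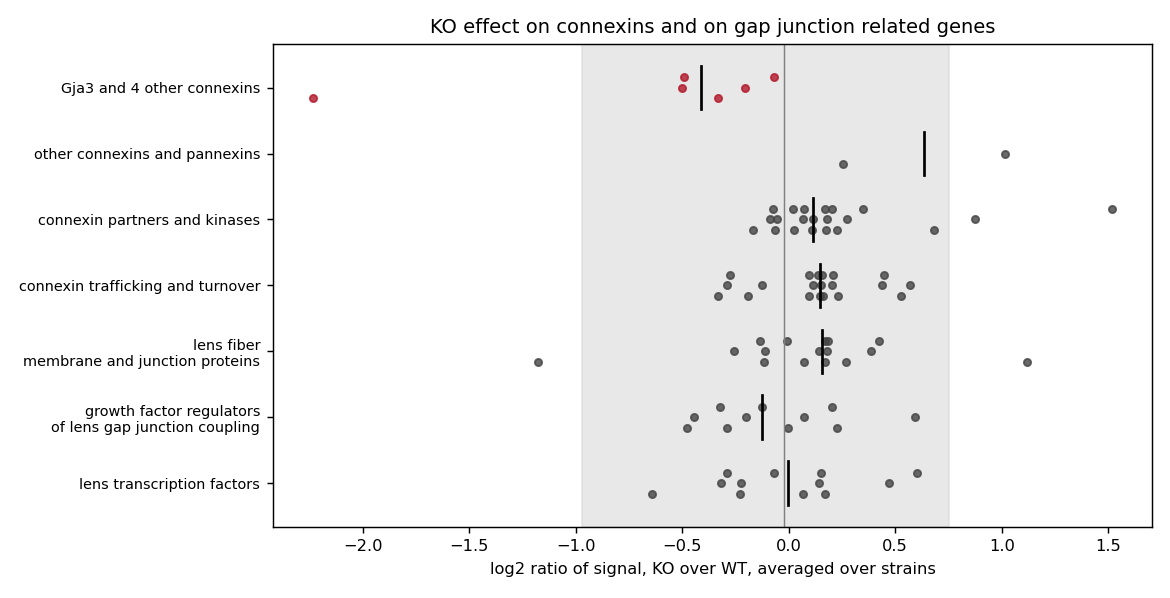
Log2 ratio of KO to WT signal averaged over strains (x axis) for the 6 connexin probe sets (red) and for tested genes of 6 gene lists (gray), with black bars at list medians, a gray line at the median of all tested probe sets (-0.02) and shading from their 5th to 95th percentile. Gja3 at -2.23 is the leftmost point, and the list medians lie between -0.13 and 0.63.

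Fiber membrane and junction genes (16 of 16 tested, none called, median 0.16) included Nrcam, a cell adhesion molecule, with 1663 and 1664 for 129SvJae KO and 1347 and 1674 for C57BL/6J KO lenses, against 1199 and 1207 for 129SvJae WT and 1029 and 1287 for C57BL/6J WT lenses. All 4 KO arrays lay above the 4 WT arrays, a pattern that 0.972% of all probe sets had, and the log2 ratio was 0.43 (SE 0.16, limma adjusted p = 0.998). Mip, the major fiber water channel, had -0.12 (SE 0.14), Aqp1, the epithelial water channel, 1.12 (SE 0.62), and Ncam1, another adhesion molecule, -0.26 (SE 0.20). Growth factor regulators of coupling (11 tested, median -0.13) and lens transcription factors (12 tested, median 0.00) had no call either. Among the regulators, Igf1r (a growth factor receptor) had -0.29 (SE 0.23), Fgf1 (a fibroblast growth factor) -0.45 (SE 0.36) and the kinase gene Akt1 0.23 (SE 0.19). Prox1, which drives fiber differentiation, had 0.47 (SE 0.21, limma adjusted p = 0.998), and the transcription factor genes Sox2 and Meis2 had -0.32 (SE 0.21) and -0.64 (SE 0.42).

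Markers of the cells that use these connexins were read beside them. The 8 fiber cell markers on the chip, of 14 fixed, all had negative KO log2 ratios (median -0.35, none called), and their summed signal ran from 204015 to 292974 on the KO arrays and from 254021 to 387898 on the WT arrays. The 7 epithelial markers, of 10 fixed, summed to 4074 to 4882 on the KO arrays and 3869 to 5823 on the WT arrays. Foxe3 and Bfsp2 were not analysed here. The fiber markers, Cryaa and Mip among them, were above 50 on all 8 arrays, as were the epithelial markers Cdh1, Pax6, Pdgfra, Npnt and Cp. The epithelial marker Ltbp1 was below 50 on the WT arrays (21.2 and 42.4 in 129SvJae, 23.8 and 29.4 in C57BL/6J) and on 129SvJae KO replicate 1 (21.3). Vim, also epithelial, was at 34.0 on 129SvJae KO replicate 2. The part of these shifts in the connexin signals was not tested. The summed retinal markers ran from 399 to 842 on the KO arrays and from 504 to 1227 on the WT arrays. No marker tested for pericytes, red blood cells, macrophages, iris pigment epithelium or cornea was called.

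The genes most like Gja3 in their log2 signals over the 8 arrays, among 7152 genes, were Bex1 (r = 0.947), Col8a1 (r = 0.892), Dapk3 (r = 0.883), Il9 (r = 0.882) and A430005L14Rik (r = 0.869). These are correlations across arrays that share their scan sessions, given as a description. Bex1, a brain-expressed adaptor gene, averaged 110 in KO and 177 in WT lenses. Its log2 ratio of KO to WT was -0.68 (limma adjusted p = 0.998), and that of Col8a1, a collagen of basement membranes, was -1.62 (limma adjusted p = 0.998).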

How the data were processed

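Lens RNA of 8 samples was hybridized by the authors to MG-U74Av2 chips, 1 sample per chip. For every array the authors deposited 1 intensity for each probe set, the MAS5 signal on a linear scale, scaled to a mean of 250. Per the file headers, run records deposited for each array (used for scan session, chip lot and fluidics errors only) hold no expression value. Groups came from the sample labels.

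Here the arrays were set to the same trimmed mean, 250 (2% off each end), 1 signal not above 0 was set to 1, and log2 signals were fitted in R 4.3.3 with limma 3.58.1 (4 group means, a variance trend, 4 residual and 9.17 prior degrees of freedom). The 66 control probe sets of 12488 were left out, and 10078 with a group mean above 50 were tested. Genes were named from the 10833 probe sets with 1 symbol (396 had several, 1193 none), updated through the RefSeq table of GRCm38.p6. A gene is given by its brightest probe set, the connexins by all of theirs. The number of arrays limits the precision. Deviations of same-numbered arrays correlated at 0.129 to 0.206 in all 6 pairs of groups. The main fit had no block, and the replicate number was a block in an alternative only. Replicate numbers follow the scan session except that 129SvJae WT replicate 2 was scanned apart from the other replicate 2 arrays. The fit was tested on simulated data. The text names all connexins on the chip, the 3 genes with the smallest p-values of a list, tested neighbours of Gja3, the 5 genes most like it and Prm1; Tjp1, Mip, Sag and single markers were chosen after their values were seen. Members, lists and tests were chosen with earlier results of these data known. Alternatives covered scaling, floors, filters, variance trend, blocks, the methods' t-test, the groups in the fit and each array left out. That t-test was judged at the adjusted p used here, whereas the authors' criteria name no adjustment.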

Additional observations from a re-analysis of the deposited data

How the results depend on the processing

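The direction of the Gja3 ratio held under all 22 alternatives (-2.82 to -1.83 on the log2 scale). Its call was lost with arrays centred on the median (-2.14), at an unmoved -2.23 with no level filter, no variance trend or the methods' t-test on log2 signals, and by that test on linear signals (-1959.5 signal units); the cause was not tested. Leaving out 1 array at a time gave -2.64 to -1.83, and lost the call without either KO array of either strain or without C57BL/6J WT replicate 2. Connexin counts went to 0 in those settings (0 to 1 with an array left out).

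Called probe sets for KO against WT averaged over strains, 2 in the main setting, were 1 with median centring, 0 with no filter, no trend or either t-test, and 0 to 3 with an array left out. For KO in 129SvJae the count of 0 became 3 once scan session was a block and 0 to 3 with an array left out (connexins 0 to 1). For KO in C57BL/6J the count of 1 became 0 with quantile normalization, a floor of 50, no filter, a mean above 100, no trend, the replicate block or either t-test, 2 with the session block or only the groups compared (connexins 1 in both), and 0 to 2 with an array left out (connexins 0 to 1). The strain count of 37 became 19 with median centring, 1 with no trend, 58 with the replicate block, 86 with the session block, 20 and 21 by the t-tests and 18 to 51 with an array left out. The interaction count of 0 ran from 0 to 1. Median centring moved the median of all probe sets from -0.02 to 0.08 in KO against WT, and in 129SvJae lenses from -0.05 to 0.09. With the replicate number as a block Gja3 stayed at -2.23 (limma adjusted p = 0.00750), and no connexin call changed.

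Of values never called, these changed sign. With 1 array left out, the strain ratio of Gja3 ran from -0.17 to 0.64 (WT -0.41 to 1.21, KO -0.033 to 0.18) and its interaction from -1.13 to 0.49. The KO ratio of the brighter Gja1 probe set ran from -0.42 to 0.0035 (129SvJae -0.79 to 0.049, C57BL/6J -0.29 to 0.21) and its strain ratio from -0.33 to 0.093. For the dimmer one these were -0.24 to 0.10 (129SvJae -0.20 to 0.46, C57BL/6J -0.61 to 0.074). Gja5 had -0.48 to 0.44 in C57BL/6J and -0.40 to 0.060 between strains. Gjb2 had -1.18 to 0.18 (129SvJae -2.58 to 0.15, C57BL/6J -0.84 to 1.26), and Gjb5 -1.21 to 0.13 in 129SvJae and -0.25 to 0.42 between strains. Median centring gave -0.022 for Gja3 between strains in KO, 0.013 for the brighter Gja1 and 0.038 for Gja5 in C57BL/6J, and 0.031 for the dimmer Gja1, which was 0.074 with the session block. Quantile normalization gave 0.0038 for Gja5 in C57BL/6J.

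Further alternatives were chosen after seeing the data. Without 129SvJae WT replicate 1 and with the replicate block, 4 probe sets were called for KO, 3 in 129SvJae and 2 in C57BL/6J (1 connexin, Gja3, in each) and 1 for the interaction. Gja3 then had -0.10 between strains, -0.27 in WT and 0.34 for the interaction, the brighter Gja1 0.047 and Gjb5 -0.046 between strains, the dimmer Gja1 -0.15 in 129SvJae, and Gjb2 0.047. With both WT replicate 1 arrays left out, 3 were called in 129SvJae and 2 in C57BL/6J, Gja3 among them. Gja3 had -0.047 between WT strains and 0.12 for the interaction, the brighter Gja1 0.13 (129SvJae 0.049, C57BL/6J 0.21), the dimmer Gja1 -0.16 in 129SvJae, 0.074 in C57BL/6J and -0.10 between strains, Gja5 0.043 (C57BL/6J 0.44), and Gjb2 0.71 (129SvJae 0.15). The intervals given are not adjusted for the number of probe sets and do not mark the smallest ratio that would be called. With 2 arrays a group, Gja3 ratios of -2.40 in C57BL/6J and -2.07 in 129SvJae lenses were not called in the main fit.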
